A study of Homo sapiens with 6 samples.

Results

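Aminoacyl-tRNA synthetases are the enzymes that load each amino acid onto its transfer RNA (tRNA), and 36 of their genes are described here, of 58735 genes in the table: 20 for cytosolic and 16 for mitochondrial enzymes. The genes were taken by name, using the symbols of GENCODE 29 (newer names of most cytosolic ones end in ARS1), a rule that uses no measured value. Gene symbols that end in 2 denote the mitochondrial enzymes, and FARSA and FARSB encode the subunits of a single cytosolic enzyme. RNA sequencing was carried out on RKO, a human colorectal carcinoma cell line, to ask which genes differ when the long noncoding RNA LOC101927668 is overexpressed. The 3 LOC_OE libraries came from RKO cells that stably carried the full-length LOC101927668 transcript from a plenti6 lentivirus under puromycin selection. The 3 Vector libraries came from RKO cells described in the labels as negative control, without the overexpressed transcript. The series text calls the libraries of a group biological replicates, and whether the stable cells were a pool or 1 clone is not given in the sources used here, so every p-value measures only the spread between these libraries.

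Protein synthesis draws on each of these enzymes, since a codon can be read only by a tRNA that carries its amino acid. Several cytosolic synthetases sit together in a multi-synthetase complex held by the scaffold proteins AIMP1, AIMP2 and EEF1E1, while the others act free in the cytosol. The mitochondrial enzymes are encoded in the nucleus, imported, and charge the tRNAs that read mitochondrial messages. When amino acids run short, the transcription factor ATF4 is known to raise many cytosolic synthetase genes together with amino acid transport and synthesis genes, and the DNA element it binds with a C/EBP partner is written TGATGNAA.

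That element was searched on both strands of the RefSeq promoter windows (GRCh38.p14), which run from 250 bases before to 50 bases after each gene's start. Windows were held for 16 of the 20 cytosolic and 14 of the 16 mitochondrial genes, and LARS, VARS, YARS, AARS2 and VARS2 were among those with no entry. The letters TGATGNAA occurred in a window of 7 of the 16 cytosolic genes (43.8%), of 1 of the 14 mitochondrial genes (7.14%) and of 4.46% of all 27305 RefSeq genes in the table, where genes differ in the number of windows. The 8 sites are printed because these genes recur in the comparison below. Each is given on the gene's own strand, 5′ to 3′, with the match in capitals. TTGCATCA and TTTCATCA are the element read on the opposite strand.
AARS, chr16:70289675-70289704, minus strand: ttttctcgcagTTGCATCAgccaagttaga
CARS, chr11:3057407-3057436, minus strand: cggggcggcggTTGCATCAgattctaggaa
GARS, chr7:30594834-30594863, plus strand: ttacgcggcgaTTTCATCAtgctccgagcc
IARS, chr9:92293692-92293721, minus strand: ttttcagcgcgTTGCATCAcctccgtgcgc
MARS, chr12:57488053-57488082, plus strand: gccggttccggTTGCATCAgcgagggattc
NARS, chr18:57621804-57621833, minus strand: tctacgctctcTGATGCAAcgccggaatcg
TARS, chr5:33440956-33440985, plus strand: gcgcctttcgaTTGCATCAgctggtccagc
YARS2, chr12:32756076-32756105, minus strand: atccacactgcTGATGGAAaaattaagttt
Counted along the gene's strand with the RefSeq start as position 1, the printed match began between positions −13 and 15 in CARS, IARS, MARS, NARS and TARS, at position −33 in GARS, at −187 in AARS and at −197 in YARS2. These matches describe the letters in the windows and are not measured binding sites.

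The libraries held between 15008842 and 18410231 reads on genes. LOC101927668 (ENSG00000243004) was covered by 1, 1 and 0 reads in Vector against 231, 270 and 276 in LOC_OE, as the labels state. LOC_OE replicate 1 stood apart from the other LOC_OE libraries, with correlations of log2(FPKM + 1) across genes of 0.967 and 0.962 with them against 0.982 between the other two, so for named genes whose call turns on it the value without it is also given. Of the epithelial and colorectal markers, KRT8, KRT18, EPCAM and CDX2 were expressed and CDH1, VIL1 and KRT20 were at or near 0 in RKO. The 7 markers of fibroblasts, immune cells and endothelium did not pass the filter on low values. In these bulk libraries fewer cells of a type and less RNA per cell cannot be told apart.

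All 36 genes passed the filter, an FPKM (fragments per kilobase of exon, scaled to the size of the library) of at least 0.5 in at least 3 libraries, as did 16061 genes in all. FPKM is a level per length, here the length of a gene's merged exons, so levels are compared between genes only on that basis. The mean Vector FPKM of the cytosolic genes ran from 9.75 to 108 with a median of 40.5, and that of the mitochondrial genes from 0.570 to 49.8 with a median of 7.51, beside a median of 4.72 over all tested genes. AARS, SARS and EPRS had the highest mean levels over the 6 libraries and SARS2, FARS2 and WARS2 the lowest.

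Of the cytosolic synthetases, 6 rose in LOC_OE cells at an adjusted p under 0.05 from limma, and 0 of the 20 fell. IARS, which charges isoleucine tRNA, rose by 0.98 on the log2 scale, followed by YARS (tyrosine), KARS (lysine), MARS (methionine), FARSB (a subunit of the phenylalanine enzyme) and TARS (threonine). Over all tested genes 10.7% were called higher and 9.74% lower. Of the 4774 tested genes whose mean FPKM lay within the range of the cytosolic synthetases, 19.1% were called higher and 6.07% lower. The cytosolic genes had a median log2 fold change of 0.25, beside 0.02 over all tested genes and 0.17 over genes of that range, and this became −0.01 with the libraries scaled to equal sums of FPKM, a scaling that moved the median of all tested genes to −0.18. Under quantile normalization it was 0.0026. With equal sums of FPKM IARS was the only cytosolic gene called higher and VARS was called lower, under quantile normalization KARS and FARSB were called higher and VARS lower, and after removal of GC trends IARS, MARS and YARS, 3 in all, were called higher. Of the 20 genes, 17 had a fold change above 0, and in 11 every LOC_OE library lay above every Vector library, compared with 24.4% of all tested genes and 40.8% of genes of the same range. At an unadjusted p under 0.05 from limma, 10 cytosolic genes were higher and 0 lower, beside 3111 and 2744 of all 16061 tested genes. Limma voom on reads recovered from the FPKM called 7 higher and 0 lower, beside 1934 and 2191 genes in all. With a fold change of at least 1.5 required as well, IARS, KARS and YARS remained, and 4.63% of all tested genes were called higher and 5.58% lower by that rule.

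**Figure D1:**
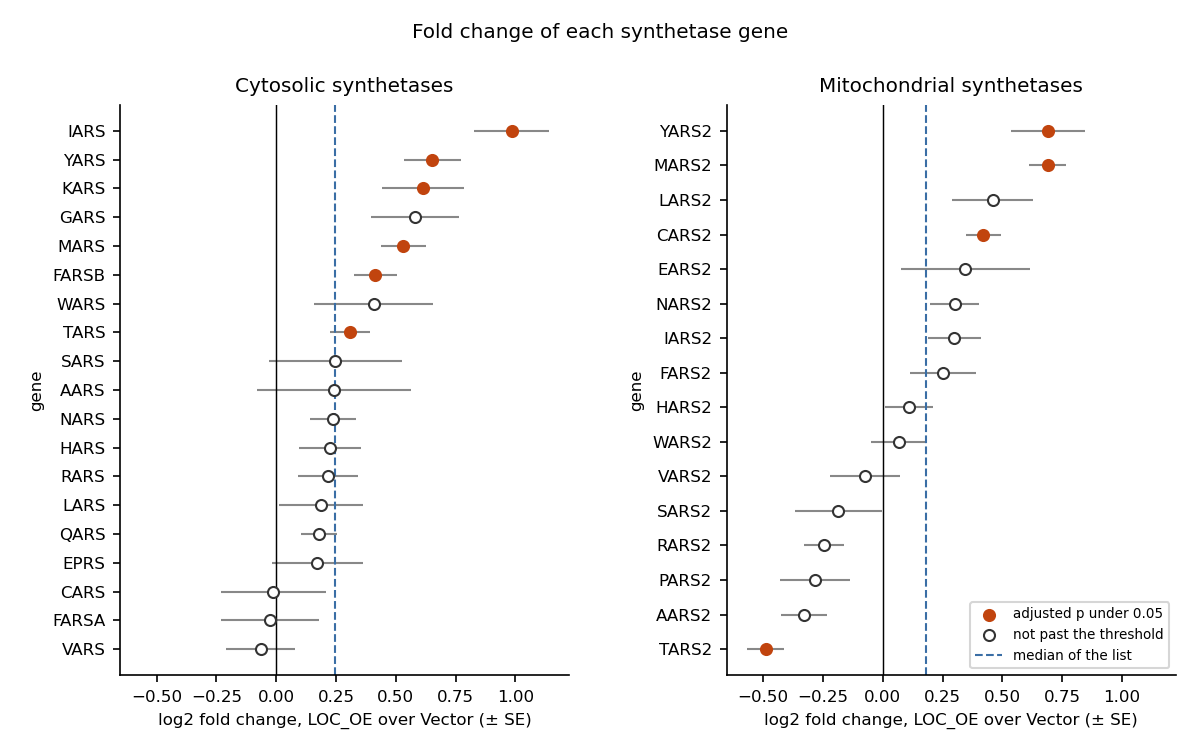
Log2 fold change of LOC_OE over Vector (x axis, ± standard error, limma on log2(FPKM + 1)) for 19 of the 20 cytosolic genes (left) and the 16 mitochondrial genes (right), with filled points for an adjusted p under 0.05 and a dashed line at the median of each list. IARS stood at 0.98 and TARS2 at −0.49, and the dashed medians of 0.25 and 0.18 became −0.01 and −0.04 with the libraries scaled to equal sums of FPKM.

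The FPKM of IARS (ENSG00000196305, chromosome 9, 92210207 to 92293756, hg38) was 47.3, 44.2 and 44.6 in the Vector libraries and 70.9, 102 and 103 in the LOC_OE libraries. Every LOC_OE library was above every Vector library, and replicate 1 was the lowest of the LOC_OE libraries. The log2 fold change was 0.98 (SE 0.16, limma adjusted p = 0.0117). Without LOC_OE replicate 1 it was 1.16 (limma adjusted p = 0.00044), and without any 1 of the Vector libraries the adjusted p lay between 0.0524 and 0.0654. YARS gave 26.4, 26.3 and 24.2 in Vector and 34.6, 43.3 and 45.2 in LOC_OE, with no overlap and replicate 1 again the lowest LOC_OE library (log2 fold change 0.65, SE 0.12, limma adjusted p = 0.0162). MARS followed the same order, with 29.5, 26.2 and 27.0 in Vector and 36.5, 42.2 and 42.2 in LOC_OE (log2 fold change 0.53, SE 0.095, limma adjusted p = 0.0154). Exons of MARS share 13.3% of their bases with other genes, the most (519 bases) with ARHGAP9, and those of YARS share 4.82% with S100PBP. Since the strand setting of the counting is not given, reads in these bases cannot be assigned.

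KARS behaved differently from these genes within the LOC_OE group. Its FPKM was 49.9, 44.3 and 44.6 in Vector and 93.2, 61.9 and 62.7 in LOC_OE, so that replicate 1 was the highest library and the groups did not overlap (log2 fold change 0.61, SE 0.17, limma adjusted p = 0.0496). FARSB had 22.3, 20.2 and 20.6 in Vector and 31.2, 27.1 and 27.0 in LOC_OE (log2 fold change 0.42, SE 0.091, limma adjusted p = 0.0261). TARS had 39.4, 35.2 and 37.3 in Vector and 46.5, 48.7 and 44.0 in LOC_OE (log2 fold change 0.31, SE 0.084, limma adjusted p = 0.0473). The groups did not overlap in either gene, and the LOC_OE libraries of TARS lay close together. The calls of KARS and TARS were the least firm of the 6, since each was kept in 1 of the 6 fits that omitted a library, the fit without LOC_OE replicate 1, where the log2 fold changes were 0.42 and 0.31 (limma adjusted p = 0.00562 for KARS and 0.0201 for TARS). In the other 5 fits the adjusted p reached 0.165 for KARS and 0.207 for TARS. GARS and KARS each encode both a cytosolic and a mitochondrial enzyme, for glycine and lysine. GARS had 59.0, 52.0 and 53.0 in Vector and 61.1, 95.3 and 94.9 in LOC_OE, without overlap, but replicate 1 lay just above the highest Vector library and the difference did not pass the test (log2 fold change 0.58, SE 0.18, limma adjusted p = 0.0707). Without that library it was 0.79 and passed (limma adjusted p = 0.00122), as it did in voom on recovered reads with all libraries (adjusted p = 0.0398).

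AARS, the alanine enzyme and the most highly expressed synthetase, shows how far 1 library decided these values. Its FPKM was 109.6, 108 and 105 in Vector and 73.1, 169.8 and 168 in LOC_OE. The Vector libraries lay within a narrow range, while LOC_OE replicate 1 was below all of them and the other LOC_OE libraries were above all of them. The log2 fold change was 0.24 (SE 0.32, limma adjusted p = 0.624), and 0.64 without LOC_OE replicate 1 (limma adjusted p = 0.000928). SARS, for serine, had 71.0, 66.8 and 64.9 in Vector and 49.9, 100.2 and 104 in LOC_OE, the same arrangement, with a log2 fold change of 0.25 (limma adjusted p = 0.558) and of 0.59 without replicate 1 (limma adjusted p = 0.00152). EPRS, which charges both glutamate and proline tRNA, had 64.6, 66.5 and 68.6 in Vector and 55.2, 93.4 and 82.1 in LOC_OE, with a log2 fold change of 0.17 (limma adjusted p = 0.556) and of 0.39 without replicate 1 (limma adjusted p = 0.00832). Together with CARS, LARS and WARS these made 6 cytosolic genes that were below every Vector library in LOC_OE replicate 1 and above every Vector library in replicates 2 and 3.

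**Figure D2:**
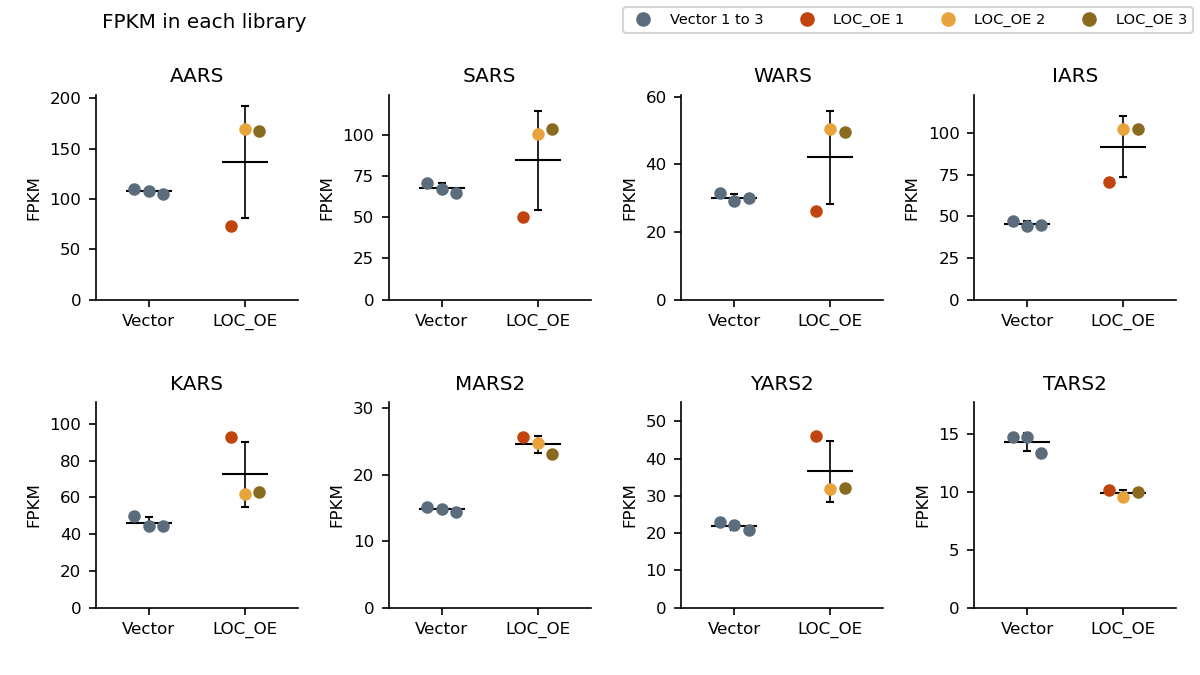
FPKM (y axis, linear from 0) of 8 synthetase genes in each of the 3 Vector and 3 LOC_OE libraries, with a horizontal line at the group mean and a bar of ± SD. LOC_OE replicate 1 was below every Vector library for AARS, SARS and WARS and the highest LOC_OE library for KARS, MARS2, YARS2 and TARS2, and the LOC_OE means of AARS (137 ± 55.3) and TARS2 (9.92 ± 0.289) had the widest and the narrowest spread of the 8.

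Over the whole cytosolic list, LOC_OE replicate 1 was the lowest of the 3 LOC_OE libraries in 11 genes and the highest in 7, whereas in the 4774 genes of the same range of levels it was the lowest in 26.8% and the highest in 66.6%. Without that library 16 cytosolic synthetases were called higher and 2 lower (limma), and all 6 calls made with every library remained. Without it 19.8% of all tested genes were called higher and 16.8% lower, and in the range of levels of the cytosolic genes 35.4% and 17.5%. The cytosolic median was then 0.37, beside 0.10 over genes of that range. The 2 that fell in this fit were VARS, for valine, with a log2 fold change of −0.22 (limma adjusted p = 0.0413) and FARSA, the other subunit of the phenylalanine enzyme, with −0.27 (limma adjusted p = 0.0282). With all libraries their log2 fold changes were −0.07 and −0.03 and neither passed the test. FARSA had 50.6, 45.8 and 46.3 in Vector and 65.2, 41.3 and 37.5 in LOC_OE, so its LOC_OE libraries lay on both sides of the Vector libraries, whereas all LOC_OE libraries of its partner FARSB were above Vector.

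The cytosolic genes were also grouped by TGATGNAA in the promoter window. In the 7 cytosolic genes with the element, the median of log2(FPKM + 1) minus the Vector mean was 0.16 in LOC_OE replicate 1, 0.60 in replicate 2 and 0.60 in replicate 3, and replicate 1 was the lowest LOC_OE library in 6 of the 7 and the highest in 0. In the 9 cytosolic genes with a window and without the element the medians were 0.45, 0.35 and 0.30, and replicate 1 was the lowest in 3 and the highest in 6. Of the 7, 3 (IARS, MARS and TARS) and of the 9, 2 (KARS and FARSB) were called higher with all libraries, beside 10.7% of all tested genes and 19.1% of genes in the range of levels of the cytosolic list. SARS, WARS and EPRS lacked the element in the window and had the same arrangement of libraries as AARS and CARS, which held it. Replicate 1 lay below every Vector library in 2 of the 7 genes and above every Vector library in 5. Of the 9 genes it lay below in 3 and above in 6. YARS2, the mitochondrial gene with the element, had replicate 1 as its highest library, at 45.9 FPKM beside 31.8 and 32.0. The grouping by this element was made after the values had been seen and carries no test.

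**Figure D3:**
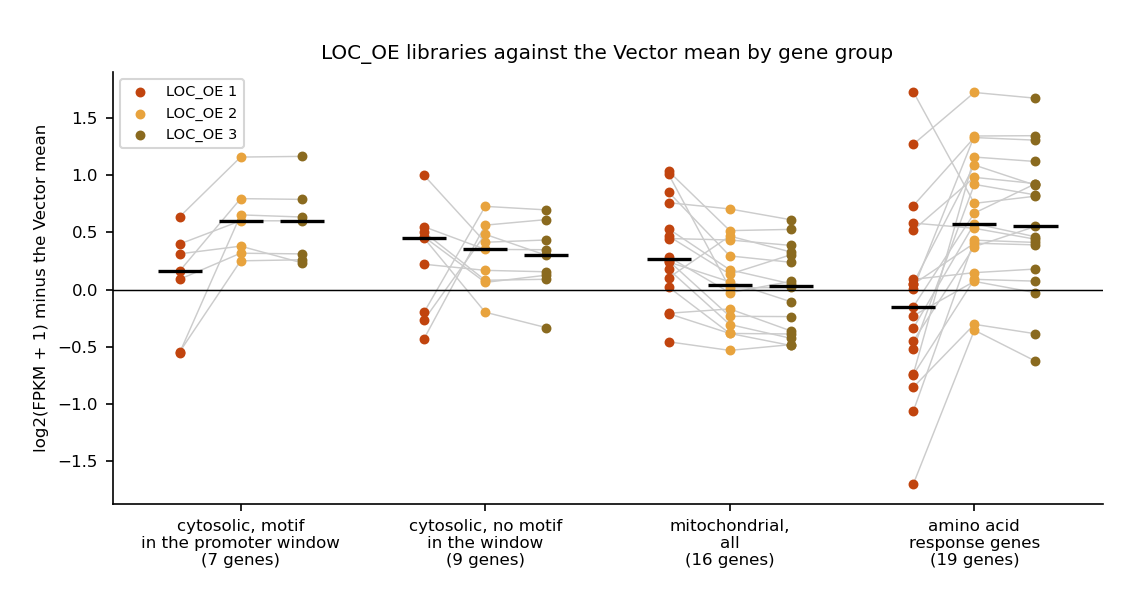
Difference of log2(FPKM + 1) from the Vector mean (y axis) in each LOC_OE library for the 7 cytosolic genes with TGATGNAA in the promoter window, the 9 without it, the 16 mitochondrial genes and 19 amino acid response genes, 1 point per gene, grey lines joining a gene and black bars at medians. The medians in LOC_OE replicates 1, 2 and 3 were 0.16, 0.60 and 0.60 for genes with the element and 0.27, 0.04 and 0.03 for mitochondrial genes.

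A list of amino acid response genes was measured in the same libraries. It holds ATF4 itself as well as genes that handle amino acid supply and others that do not. Of 22 listed amino acid response genes 19 passed the filter, and 5 of these were called higher and 0 lower by limma, beside 10.7% and 9.74% of all tested genes, with a median log2 fold change of 0.41. ATF4 had 86.5, 83.2 and 81.7 FPKM in Vector and 139.7, 212 and 208 in LOC_OE, with no overlap and replicate 1 the lowest LOC_OE library (log2 fold change 1.12, limma adjusted p = 0.0107). SLC7A5, a transporter of large neutral amino acids, had 56.2, 55.0 and 54.1 in Vector and 134, 184 and 178 in LOC_OE (log2 fold change 1.55, limma adjusted p = 0.00344), and stayed called without any 1 library. ATF5, a related transcription factor, rose by 1.10, with LOC_OE replicate 1 the highest library at 17.2 beside 8.27 and 8.69. PSAT1, of serine synthesis, had 58.3, 58.6 and 57.9 in Vector and 58.4, 149 and 149 in LOC_OE, so replicate 1 lay among the Vector libraries (log2 fold change 0.90, limma adjusted p = 0.124, and 1.34 with limma adjusted p = 0.000368 without replicate 1). Other genes of the list, picked out after their values were seen, lay the other way: CTH, of cysteine synthesis, had 6.20, 6.60 and 6.57 in Vector and 1.29, 4.83 and 3.83 in LOC_OE (log2 fold change −0.89, limma adjusted p = 0.104). The transcription factor ATF3 was also below Vector in every LOC_OE library (log2 fold change −0.51, limma adjusted p = 0.0668), and without LOC_OE replicate 1 both were called lower. ASNS, the asparagine synthetase, had a log2 fold change of −0.19 with groups that overlapped. Unlike CTH and ATF3, it lay below every Vector library only in LOC_OE replicate 1, and above every Vector library in replicates 2 and 3. Without replicate 1 its log2 fold change was 0.081 (limma adjusted p = 0.482). Replicate 1 was the lowest LOC_OE library in 17 of the 19 genes, beside 6510 of all 16061 tested genes. The medians of log2(FPKM + 1) minus the Vector mean were −0.15, 0.58 and 0.55 in LOC_OE replicates 1, 2 and 3. Whether the levels of these genes and of the synthetases are linked was not tested.

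**Figure D4:**
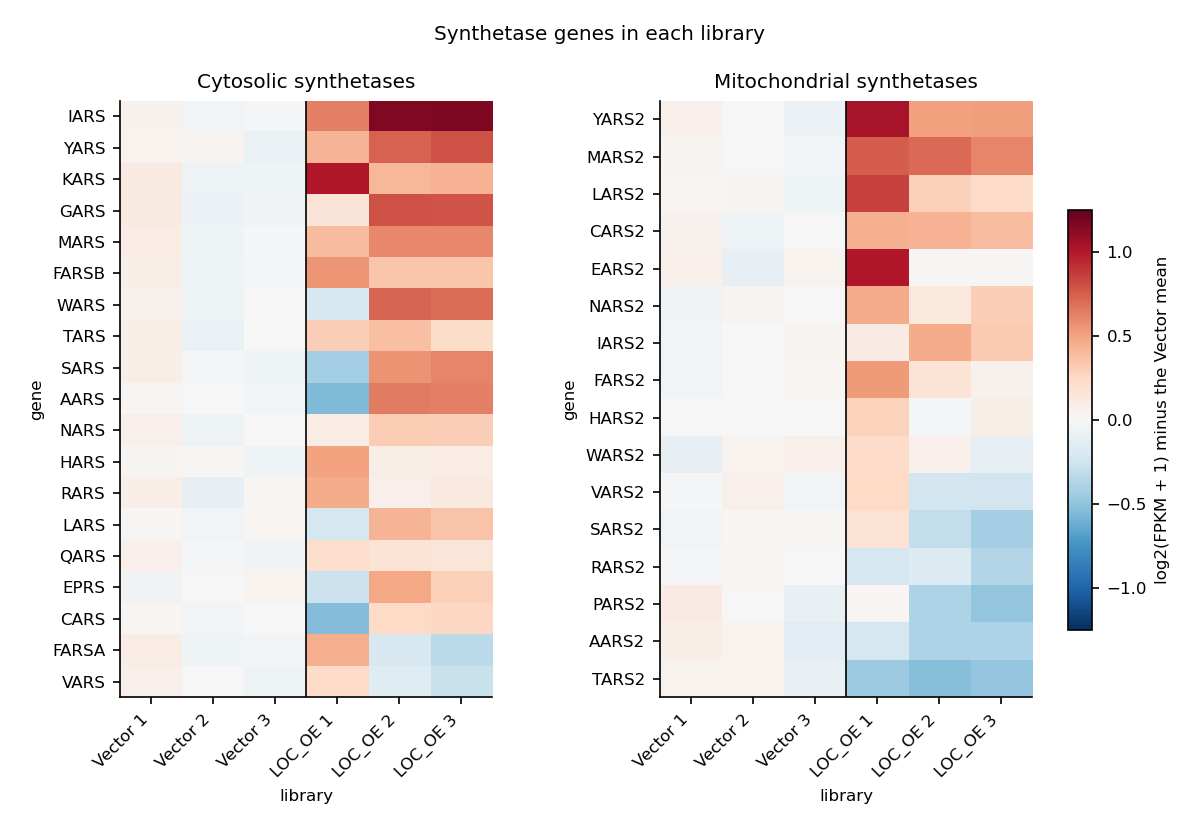
Difference of log2(FPKM + 1) from the Vector mean (colour) for 19 of the 20 cytosolic (left) and the 16 mitochondrial genes (right) in each of the 6 libraries, ordered by fold change. The Vector columns are nearly blank, AARS and CARS stand at −0.55 in LOC_OE replicate 1, and EARS2 and YARS2 at 1.01 and 1.03 in that library.

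Among the mitochondrial synthetases 3 of 16 rose, 1 fell and 12 did not pass the test in limma, shares to be read against 10.7% and 9.74% of all tested genes. Of the 15000 tested genes within the range of mean levels of this list, 10.3% were called higher and 9.78% lower. The median log2 fold change was 0.18 with 10 genes above 0 and 6 below, and it was −0.04 with equal sums of FPKM, 0.07 under quantile normalization and 0.02 without LOC_OE replicate 1. With equal sums of FPKM, MARS2 and YARS2 were called higher and AARS2, PARS2, RARS2 and TARS2 lower, and under quantile normalization MARS2, YARS2 and CARS2 higher and AARS2, RARS2 and TARS2 lower. MARS2, the mitochondrial methionine enzyme, had the lowest adjusted p of all 36 genes. Its FPKM was 15.2, 14.9 and 14.4 in Vector and 25.8, 24.8 and 23.2 in LOC_OE, so the groups lay far apart and replicate 1 resembled the other LOC_OE libraries (log2 fold change 0.69, SE 0.077, limma adjusted p = 0.00607). It kept its call under every scaling tried and when any 1 library was omitted other than Vector replicate 2 (limma adjusted p = 0.0508).

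YARS2, for tyrosine, had 22.9, 22.1 and 20.9 in Vector and 45.9, 31.8 and 32.0 in LOC_OE (log2 fold change 0.69, SE 0.15, limma adjusted p = 0.0269). CARS2, for cysteine, had 7.58, 6.92 and 7.29 in Vector and 10.2, 10.1 and 9.79 in LOC_OE (log2 fold change 0.42, SE 0.074, limma adjusted p = 0.015). In both genes all LOC_OE libraries were above all Vector libraries, with replicate 1 far above the others in YARS2 and level with them in CARS2. TARS2, for threonine, was the one synthetase that fell with all libraries. Its FPKM was 14.8, 14.8 and 13.4 in Vector and 10.2, 9.61 and 9.98 in LOC_OE, with no overlap and little spread in LOC_OE (log2 fold change −0.49, SE 0.078, limma adjusted p = 0.0117). The call of YARS2 was also lost without a filter on low values (limma adjusted p = 0.0559) and with libraries centred on each chromosome's median (limma adjusted p = 0.0548). The calls of YARS2, CARS2 and TARS2 were lost without any 1 Vector library and remained without any 1 LOC_OE library.

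AARS2, for alanine, had 12.1, 11.8 and 10.3 in Vector and 9.69, 8.49 and 8.46 in LOC_OE, so every LOC_OE library was below every Vector library, yet the difference did not pass the test (log2 fold change −0.33, limma adjusted p = 0.057) until LOC_OE replicate 1 was omitted (−0.39, limma adjusted p = 0.0127). PARS2, for proline, had 7.33, 6.70 and 6.25 in Vector and 6.87, 4.94 and 4.52 in LOC_OE, where replicate 1 lay within the Vector libraries and the others below them (log2 fold change −0.28, limma adjusted p = 0.216). Without replicate 1 it was −0.44 and passed the test (limma adjusted p = 0.0106). The least abundant synthetase was SARS2, for serine, with 32, 36 and 35 recovered reads in Vector and 40, 14 and 8 in LOC_OE, or 0.528, 0.600 and 0.582 FPKM against 0.773, 0.270 and 0.169. Of its exon bases 57.0% are shared with other genes, the most (1492 bases) with AC011455.2, so its level is uncertain. FARS2, for phenylalanine, had 2.01, 2.08 and 2.13 in Vector and 3.44, 2.46 and 2.18 in LOC_OE (log2 fold change 0.25, limma adjusted p = 0.239). WARS2, for tryptophan, had 3.45, 3.93 and 4.01 in Vector and 4.66, 4.02 and 3.45 in LOC_OE, and the groups overlapped. The log2 fold changes of the other mitochondrial genes ran from −0.25 for RARS2 to 0.46 for LARS2, and none passed the test.

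LOC_OE replicate 1 was the highest LOC_OE library in 14 of the 16 mitochondrial genes and the lowest in 1, against 44.3% and 41.2% of the 15000 genes in the same range of levels. That range is wide and takes in most of the 16061 tested genes. In the narrower range of the cytosolic genes replicate 1 was the highest in 66.6% and the lowest in 26.8%. The medians of log2(FPKM + 1) minus the Vector mean were 0.27 in replicate 1, 0.04 in replicate 2 and 0.03 in replicate 3. In EARS2, for glutamate, replicate 1 stood 1.01 above the Vector mean on this scale and the other LOC_OE libraries 0.01 and 0.02 above it. Without replicate 1, 5 mitochondrial genes were called higher and 5 lower, with the 4 calls made on all libraries among them. In the range of levels of the mitochondrial list 19.2% and 16.9% of genes were then called.

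HARS and HARS2, for histidine in the cytosol and in mitochondria, lie head to head on chromosome 5, and their RefSeq starts (140691370 on the minus strand and 140691455 on the plus strand, GRCh38.p14) leave 84 bases between them. That stretch is 59.5% GC, holds 9 CG dinucleotides and has the ETS-type letters CCGGAAGT at both ends, in opposite directions, a motif found on either strand in the windows of 4.95% of all RefSeq genes. Its ends are printed on the plus strand with the matches in capitals, because both genes start from them.
HARS end, chr5:140691371-140691400: gACTTCCGGctatcgagtcgctgggtcgca
HARS2 end, chr5:140691425-140691454: caaaaattatttccggctcctcCCGGAAGT
HARS had 13.1, 12.9 and 12.3 FPKM in Vector and 18.5, 13.6 and 13.6 in LOC_OE (log2 fold change 0.22, limma adjusted p = 0.263). HARS2 had 9.91, 9.92 and 9.88 in Vector and 12.3, 9.70 and 10.5 in LOC_OE (log2 fold change 0.11, limma adjusted p = 0.467). In both genes LOC_OE replicate 1 was the highest library and the others were near Vector. The genes overlap in the annotation by 437 exon bases, so some reads can be counted for either. Counting every overlapping gene, 8.38% of HARS exon bases and 15.8% of HARS2 exon bases are shared.

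Pairing of symbols that differ only by the final 2 gave a cytosolic and a mitochondrial gene for 13 amino acids, and their levels were compared within each library. Phenylalanine, glutamate and proline, whose separate genes have unmatched symbols, were left out. The cytosolic gene was the higher in every Vector library for 12 of the 13. The exception was isoleucine, where IARS was at 0.911 of IARS2 in the Vector mean, and the median over pairs was 2.60-fold. The widest gap, 119-fold for SARS over SARS2, rests on the uncertain level of SARS2. In LOC_OE the ratio of IARS to IARS2 was 1.32, 1.48 and 1.64, against 0.972, 0.888 and 0.874 in Vector, so the order of their FPKM was reversed in every LOC_OE library. Which gene is the higher depends on the merged exon length used, 7401 bases for IARS and 4165 for IARS2. The change in ratio does not. The ratio of TARS to TARS2 was 2.66, 2.38 and 2.78 in Vector and 4.57, 5.07 and 4.40 in LOC_OE. With the deposited scaling TARS was called higher and TARS2 lower. With equal sums of FPKM and under quantile normalization TARS had log2 fold changes of 0.052 and 0.057 and was not called, and TARS2 stayed called lower. RARS to RARS2 (arginine) also lay higher in every LOC_OE library and CARS to CARS2 lower in every LOC_OE library, while the other 9 ratios overlapped between the groups. Of all tested single genes 24.4% lay higher and 20.9% lower in every LOC_OE library, and the share over ratios of other genes was not measured. A ratio within a library does not depend on the scaling between libraries, and it shows unequal change without showing which gene changed.

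**Figure D5:**
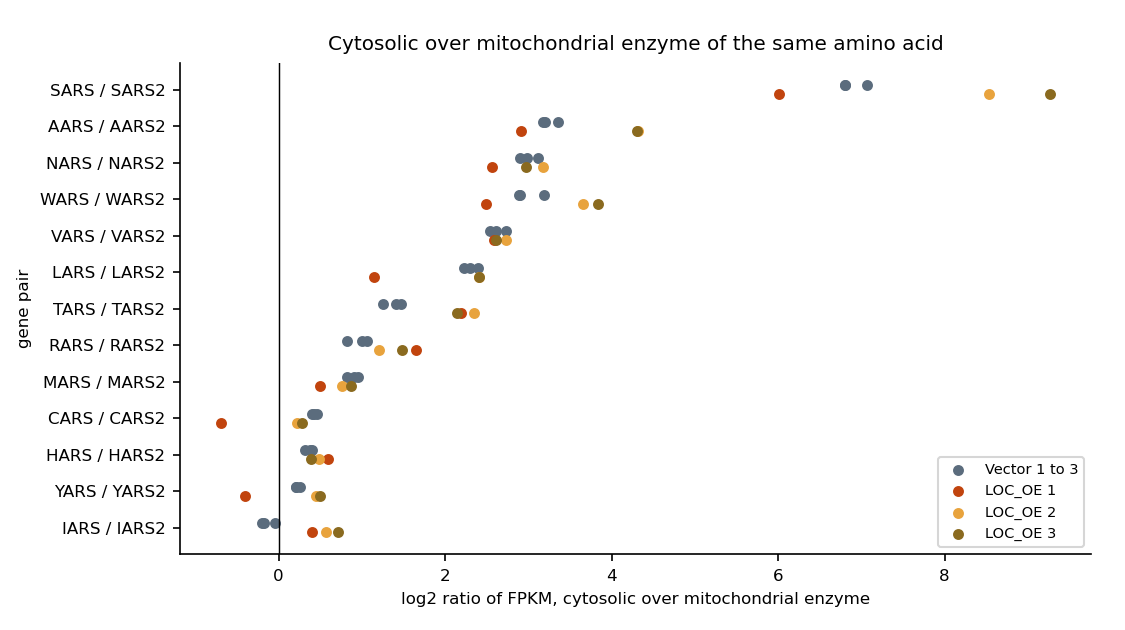
Log2 ratio of FPKM of the cytosolic over the mitochondrial gene for 13 amino acids (x axis), with 3 Vector points above and 3 LOC_OE points below in each row. The IARS ratio lay below 0 in every Vector library and above 0 in every LOC_OE library, and the TARS ratio moved up by 0.85.

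The 8 enzymes of the multi-synthetase complex included 3 called higher (IARS, KARS and MARS) and 0 lower in limma, with a median log2 fold change of 0.23, and the 12 free cytosolic enzymes also included 3 called higher (YARS, FARSB and TARS), with a median of 0.25. By the structure of the catalytic domain, 6 of 18 class I genes were called higher and 0 lower, with a median of 0.32, and 3 of 17 class II genes higher and 1 lower, with a median of 0.24. EPRS joins a domain of each class and was counted in neither. These shares stand beside 10.7% and 9.74% of all tested genes. For the complex and free cytosolic enzymes, genes in the range of levels of the cytosolic list are the closer background. Of those genes 19.1% were called higher and 6.07% lower, with a median log2 fold change of 0.17. Of the scaffold proteins of the complex, EEF1E1 rose by 0.60 on the log2 scale (limma adjusted p = 0.0318), with 5.11, 4.96 and 5.18 FPKM in Vector and 10.3, 7.78 and 6.85 in LOC_OE. AIMP1 had a log2 fold change of 0.34 (limma adjusted p = 0.0521) and AIMP2 of 0.31 (limma adjusted p = 0.231).

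Genes that act before and after charging were taken from lists of the same pathway. Of 7 genes of mitochondrial charging and delivery 4 rose and 0 fell in limma, where 10.7% and 9.74% of all tested genes did. TSFM, the exchange factor of the mitochondrial elongation factor, had 9.84, 9.17 and 8.90 FPKM in Vector and 25.2, 17.9 and 17.9 in LOC_OE (log2 fold change 1.03, limma adjusted p = 0.00885). GFM1, a mitochondrial elongation factor G, rose by 0.69, MTFMT, which formylates the initiator methionyl-tRNA that MARS2 charges, by 0.48, and GATB, a subunit of the amidotransferase that makes mitochondrial glutaminyl-tRNA, by 0.46. The call of GATB (limma adjusted p = 0.0485) was kept in 1 of the 6 fits that omitted a library, the fit without LOC_OE replicate 1. LOC_OE replicate 1 was the highest LOC_OE library in all 7 genes of this list, as it was in 14 of the 16 mitochondrial synthetases. Over all 16061 tested genes it was the highest in 7253. Of 4 tested genes that deliver charged tRNA in the cytosol 1 rose, EEF1D by 0.58 (limma adjusted p = 0.0481). EEF1G is listed at 0 in all libraries, with 99.9% of its exon bases shared with other genes, the most with AP002990.1.

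Of 14 genes of tRNA maturation and export 6 rose and 0 fell in limma, and of 7 further genes of proofreading, selenocysteine and other charging 3 rose and 0 fell, where 10.7% and 9.74% of all tested genes did. XPOT, the exporter of tRNA from the nucleus, had 24.0, 21.4 and 22.3 FPKM in Vector and 30.1, 54.4 and 52.0 in LOC_OE (log2 fold change 0.94, limma adjusted p = 0.033), with replicate 1 the lowest LOC_OE library. Its call was kept in 1 of the 6 fits that omitted a library, the fit without replicate 1 (limma adjusted p = 0.000585), and the adjusted p reached 0.12 in the others. POP1, a protein of the RNase P that trims tRNA precursors, had 10.0, 8.18 and 8.16 in Vector and 28.8, 17.0 and 16.9 in LOC_OE (log2 fold change 1.12, limma adjusted p = 0.0183), with replicate 1 the highest. TSEN15, of the tRNA splicing endonuclease, rose by 0.73 and SSB, which binds the ends of new tRNA precursors, by 0.54. In the list of further genes, DTD1 and DTD2, which remove D-amino acids and mischarged residues from tRNA, rose by 0.49 and 0.58 and SEPHS2, which makes the selenium donor, by 0.53, while the other 4 did not pass the test.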

How the data were processed

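RNA was extracted with TRIzol and libraries were made with the NEBNext Ultra kit and sequenced in pairs on a NovaSeq instrument. The submitters' processing notes name HISAT2 2.0.4, StringTie 1.3.0 and the build hg38. The tool and the strand setting of the counting are not given in the sources used here. The authors deposited 1 FPKM value per gene and library for 58735 genes, whose IDs all matched GENCODE 29, and 0 columns of values were left unused. FPKM times the merged exon length gave whole reads for 100% of values above 0 within 0.02 of a whole number, and the library sizes behind the values were proportional to median-of-ratios factors rather than to total reads.

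Log2(FPKM + 1) was fitted with limma 3.58.1 (R 4.3.3) with a variance trend over the 16061 genes that reached an FPKM of 0.5 in 3 libraries or more, all 6 libraries in the fit, 2-sided, with Benjamini-Hochberg adjustment over all tested genes. Fold changes are on the log2(FPKM + 1) scale, which understates the change of low genes. The script was tested on simulated data. Tables and figures were made with Python 3.11.15, pandas 2.3.3 and matplotlib 3.10.9. Leaving out libraries, other scalings, filters, pseudocounts, variance models, a replicate block, voom on recovered reads, chromosome centring and removal of the GC trend (added after seeing the data) were tried.

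The synthetases and lists were chosen with earlier results of these data known. Values in every library are given for each synthetase past the test, the 3 with the largest fold change in each direction, the 3 highest and 3 lowest levels, HARS, HARS2, GARS and KARS (21 genes). Of the other lists up to 4 genes with the largest change are named. Of the list, 1 cytosolic gene enters the counts and medians and is not reported here by name. FARSA and EARS2 were added after their values were seen.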

Additional observations from a re-analysis of the deposited data

How the results depend on the processing

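Depth limits SARS2, with 8 to 40 recovered reads per library, more than the other synthetases, which had at least 155. The calls rest on 3 libraries a group, and the libraries left out and the scaling between libraries both moved the counts by over 1.5 times. The cause of these shifts was not tested, except where fewer libraries or a second criterion fix them. Rescaling to the same sum of FPKM, which took the median of all tested genes to −0.18, gave 1 cytosolic synthetase higher and 1 lower, 4 mitochondrial lower, 716 genes higher and 3138 lower in all, and medians of −0.013 (cytosolic) and −0.044 (mitochondrial). Of the 20 cytosolic genes 9 changed sign there and 12 were then below 0, and of the 16 mitochondrial genes 2 changed sign; among the genes named with values in every library these were AARS (−0.016), EPRS (−0.086), HARS (−0.021), SARS (−0.010), HARS2 (−0.13) and WARS2 (−0.14). Quantile normalization gave 2 cytosolic higher and 1 lower, 3 mitochondrial lower and a cytosolic median of 0.0026, with AARS at −0.078, EPRS at −0.10 and SARS at −0.018. With equal sums, median-of-ratios factors and quantile normalization MARS2 and YARS2 stayed called higher and TARS2 lower, but YARS2 lost its call when centred per chromosome (adjusted p = 0.0548 from limma).

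Array weights, which gave LOC_OE replicate 1 a weight of 0.104, gave 16 cytosolic higher, 5 mitochondrial higher and 6 lower, 4362 and 3724 genes in all, medians of 0.39 and 0.043, and HARS2 at −0.010. Removing the GC trend, chosen after seeing the data, gave 3 cytosolic higher, 3 mitochondrial lower and WARS2 at −0.00046. Without a filter 1052 genes were higher in all. At an unadjusted p under 0.05 the counts were 10 cytosolic higher, 6 mitochondrial higher and 3 lower, and 3111 and 2744 in all, and with a fold of at least 1.5 as well 3 cytosolic higher and 0 mitochondrial lower.

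Over the 6 fits that left out 1 library (limma, adjusted p), cytosolic genes called higher ran from 0 to 16 and lower from 0 to 2, mitochondrial genes higher from 0 to 5 and lower from 0 to 5, all genes higher from 101 to 3101 and lower from 148 to 2637, the cytosolic median from 0.23 to 0.37 and the mitochondrial median from 0.019 to 0.22. The 0 cytosolic calls came without Vector replicate 1, 2 or 3, where 8, 5 and 6 were higher at an unadjusted p under 0.05, and the highest counts without LOC_OE replicate 1; without LOC_OE replicate 2 and 3 there were 1 and 4. WARS2 ran from −0.020 without LOC_OE replicate 1 to 0.15 without LOC_OE replicate 3. With the replicate number as a block, 1125 genes were higher and 940 lower in all, and 5 cytosolic synthetases higher. Libraries of the same number had correlations of deviations of 0.11, −0.034 and 0.12, and those of different numbers from −0.13 to 0.058. With 3 libraries a group, these values cannot show whether libraries of the same number share more than a number. Of 272 fold changes of named synthetases under alternatives with all libraries, 224 kept their direction and side of the threshold, 23 lost and 14 gained a call, and 11 changed sign.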
